A study of Mus musculus with 8 samples.

Results

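The DEAD and DEAH box RNA helicase genes were taken as all protein-coding genes of the RefSeq mouse table (build GRCm38.p6, mm10) whose symbol is Ddx or Dhx followed by a number, without Dhx9. This gave 52 genes of 21887 in all on the autosomes and sex chromosomes. Of these, 37 have a Ddx symbol and 15 a Dhx symbol. The H3K36me3 ChIP-seq data came from mouse embryonic stem cells that carry a doxycycline-inducible knockdown of Setd2, the methyltransferase that trimethylates histone H3 at lysine 36. Knockdown cells received 1 µg/ml doxycycline for 4 days, and control cells, which share the growth protocol of the inducible cells and are labelled with a control genotype, received none, so effects of doxycycline and of the knockdown cannot be told apart. Both were grown without feeder cells as spheres in serum-free medium with 1 µM of the MEK inhibitor PD0325901, 3 µM of the GSK3 inhibitor CHIR99021 and 1000 U/ml LIF. The 8 libraries comprised 2 replicates each of knockdown ChIP, knockdown input, control ChIP and control input.

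RNA helicases of these families use ATP to unwind short RNA duplexes or to strip proteins from RNA, and are named for a conserved motif written in amino acid letters. They act at nearly every step of an RNA's life, from splicing and nuclear export to ribosome assembly, translation and decay, and a few detect viral RNA. H3K36me3 is deposited behind elongating RNA polymerase II and typically covers the body of transcribed genes towards their 3′ end, leaving the promoter free.

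The authors called peaks once per condition on the merged replicates, so there was 1 value per gene and condition, no spread between replicates and no test between conditions. ChIP depth was 38670982 tags in knockdown and 42509111 tags in control, of which 29416169 and 36244210 remained after removal of duplicates. The knockdown list held 3040 peaks over 5.67 Mb and the control list 30634 peaks over 110.7 Mb. The smallest listed peak had 30 tags in knockdown and 32 in control, so weaker enrichment is not detectable in these lists. Among 16 embryonic stem cell markers, 4 held a knockdown peak and 13 a control peak. Among 19 markers of other cell types none held a knockdown peak and 3 held a control peak (Hand1, Eomes and Sox1). Of all protein-coding genes, 4.95% held a knockdown peak and 41.2% a control peak. Setd2 itself held no knockdown peak and 11 control peaks, and 40.1% of its span was covered in control. Peaks do not measure the Setd2 transcript, so the strength of the knockdown was not checked here.

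Nearly every helicase gene was marked in control cells, and few were marked after knockdown. A gene counted as marked where its span, from annotated start to end, contained the centre of a peak, and its cover is the percent of the span under any peak, including a peak centred outside it. In knockdown cells 10 of the 52 genes were marked (19.2%, against 4.95% of all protein-coding genes), and in control cells 50 of 52 (96.2%, against 41.2% of all genes). All 10 genes marked in knockdown were also marked in control, as were 956 of all 1084 protein-coding genes marked in knockdown. Dhx9, left out of the set, had 2 knockdown peaks and no control peak. The 10 genes are 20% of the 50 control-marked members, where 10.6% of all control-marked genes (956 of 9016) kept a peak. With peaks of a caller score of at least 100 alone, 2 of 47 members kept one, Ddx5 and Ddx11 (4.26%, against 4.38% of all genes). The excess over other genes was thus not seen at this score, where the comparison rests on 2 members. The 10 genes were Ddx5, Ddx11, Ddx21, Ddx23, Ddx24, Ddx39a, Ddx49, Ddx56, Ddx60 and Dhx30. Ddx4 and Ddx25 had no base under a peak in either list.

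The promoter sequences below show 3 contrasting kinds of member: Ddx4 and Ddx25, which carried no peak, Ddx58 and Ddx60, antiviral genes with little H3K36me3, and Ddx5 and Ddx39b, which had the highest covered share in knockdown and in control. Each is the RefSeq window (GRCm38.p6) from 250 bases before to 50 after the start in the gene's promoter entry, 5′ to 3′ on the gene's strand. This start can differ from the 5′ end of the span used elsewhere. For Ddx4 it lies inside the span, at 112652310 against a 5′ end at 112652633. Capitals mark the ETS core CCGGAAG, the TATA box letters TATAAA and the E-box CACGTG, its own reverse complement. They also mark the core of the interferon-stimulated response element, searched as GAAA, any 2 bases, then GAAA. Each was searched on either strand and at any position in the window. The response element core was chosen after the sequences had been seen, and no matches overlap in the 6 windows. The TATAAA of Ddx58 lies well before the start and that of Ddx60 just after it, so neither is called a TATA box here. The windows lie at chr13:112652261-112652560 on the minus strand (Ddx4), chr9:35558421-35558720 on the minus strand (Ddx25), chr4:40239776-40240075 on the minus strand (Ddx58), chr8:61927837-61928136 on the plus strand (Ddx60), chr11:106789136-106789435 on the minus strand (Ddx5) and chr17:35241496-35241795 on the plus strand (Ddx39b).
Ddx4: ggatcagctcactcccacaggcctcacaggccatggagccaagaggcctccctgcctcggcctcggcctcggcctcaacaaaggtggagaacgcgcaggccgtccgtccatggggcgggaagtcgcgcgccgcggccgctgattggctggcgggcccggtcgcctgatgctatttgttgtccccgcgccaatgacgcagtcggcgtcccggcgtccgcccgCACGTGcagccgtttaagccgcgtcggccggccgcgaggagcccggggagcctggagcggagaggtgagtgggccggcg
Ddx25: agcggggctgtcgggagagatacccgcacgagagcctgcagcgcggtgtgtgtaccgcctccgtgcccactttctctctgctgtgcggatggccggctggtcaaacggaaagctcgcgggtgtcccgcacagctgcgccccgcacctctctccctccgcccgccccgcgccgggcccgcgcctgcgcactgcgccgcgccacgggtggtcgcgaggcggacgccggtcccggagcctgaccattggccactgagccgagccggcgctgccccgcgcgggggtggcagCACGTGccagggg
Ddx58: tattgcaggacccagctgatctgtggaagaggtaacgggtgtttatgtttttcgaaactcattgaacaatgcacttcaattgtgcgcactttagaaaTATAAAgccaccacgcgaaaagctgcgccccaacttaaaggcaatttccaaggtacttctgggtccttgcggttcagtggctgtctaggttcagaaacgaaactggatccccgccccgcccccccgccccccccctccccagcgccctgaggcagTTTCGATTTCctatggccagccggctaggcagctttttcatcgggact
Ddx60: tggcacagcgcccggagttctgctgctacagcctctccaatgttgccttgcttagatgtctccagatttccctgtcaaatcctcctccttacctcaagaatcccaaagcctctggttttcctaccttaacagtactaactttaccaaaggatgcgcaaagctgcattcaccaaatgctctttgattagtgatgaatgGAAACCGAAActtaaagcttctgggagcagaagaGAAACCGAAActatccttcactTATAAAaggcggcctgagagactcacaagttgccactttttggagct
Ddx5: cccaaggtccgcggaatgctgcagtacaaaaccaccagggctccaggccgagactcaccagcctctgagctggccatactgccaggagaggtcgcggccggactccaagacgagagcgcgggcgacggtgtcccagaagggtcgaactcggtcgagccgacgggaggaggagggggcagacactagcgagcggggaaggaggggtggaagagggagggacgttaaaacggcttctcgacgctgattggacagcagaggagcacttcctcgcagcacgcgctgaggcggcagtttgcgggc
Ddx39b: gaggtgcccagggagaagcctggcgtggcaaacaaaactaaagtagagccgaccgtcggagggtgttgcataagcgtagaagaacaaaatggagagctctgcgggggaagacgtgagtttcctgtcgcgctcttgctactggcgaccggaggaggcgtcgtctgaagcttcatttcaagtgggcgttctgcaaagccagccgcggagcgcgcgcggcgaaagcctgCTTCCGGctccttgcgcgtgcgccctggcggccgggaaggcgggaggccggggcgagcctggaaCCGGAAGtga

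The windows of the 2 unmarked genes were the richest in CpG of these 6, with 38 CpG in Ddx4 and 41 in Ddx25, the highest count of any member. Ddx39b had 31 and Ddx5 had 27, while Ddx58 had 15 and Ddx60 had 6, the lowest count of any member. TATAAA was found in 2 of the 46 members with a promoter entry, Ddx58 and Ddx60 (4.35%, against 13.3% of 17492 genes and 6.07% of those with a control peak). The response element core, which binds interferon-activated factors in many antiviral genes, was found in Ddx49, Ddx58 and Ddx60 (6.52%, against 3.40% of all genes and 2.48% of those with a control peak). Ddx60 held 2 copies within this window. CACGTG was found in 5 members, Ddx4, Ddx25, Dhx33, Dhx35 and Dhx40 (10.9%, against 7.91% of all genes and 10.7% of those with a control peak). CCGGAAG, the core bound by ETS family factors, was found in 17 members (37.0%), in 11.9% of all genes and in 20.1% of genes with a control peak. A match is a description of the letters in this window, and nothing was measured of factors bound there. The median member window held 24 CpG, against 13 for all genes and 22 for genes with a control peak. None of the 46 windows was touched by a control peak, against 1.40% of all 17492 windows (245). Ddx6, Ddx11, Ddx23, Ddx39a, Dhx38 and Dhx58 are the other 6 members.

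**Figure D1:**
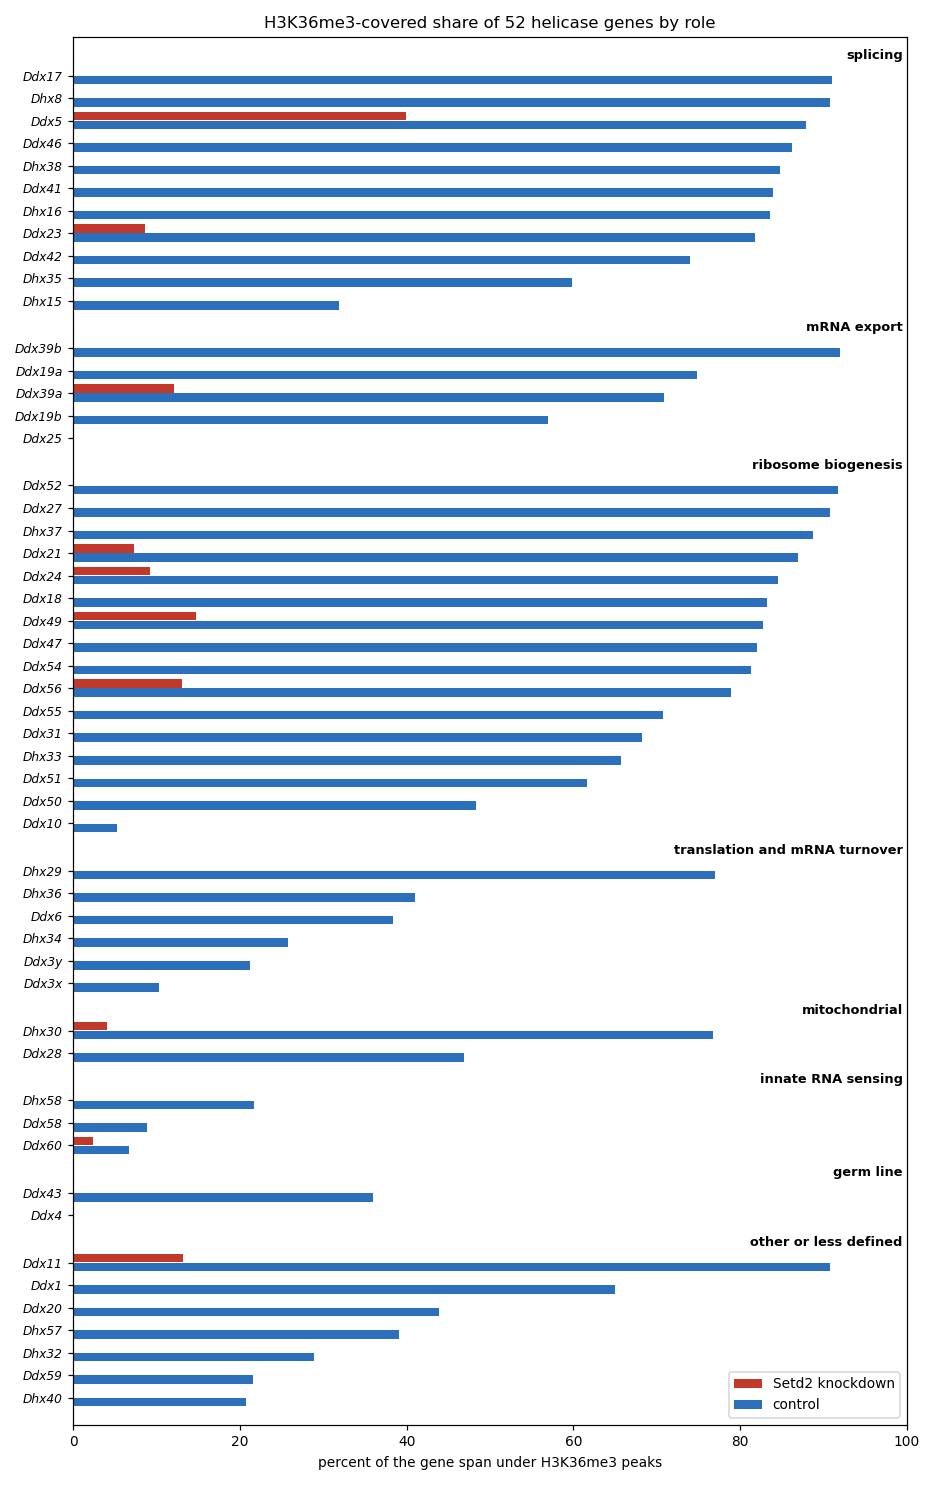
Percent of each helicase gene's span under H3K36me3 peaks, with knockdown (red) above control (blue), 1 value per gene and condition, genes grouped by role. Red bars appear at 10 genes and reach at most 39.9% (Ddx5), whereas 32 blue bars are at 50% or more.

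Together the 52 genes span 1577 kb. Peaks covered 20.47 kb of this in knockdown (1.30%, against 0.259% over all protein-coding genes) and 744.4 kb in control (47.2%, against 9.37%). The median member was covered over 69.5% of its span in control, with quartiles of 34.9% and 83.7%, while the median over all genes was 0. Among control-marked genes alone the medians were 70.8% for the members and 37.9% for all. No member was covered over 50% in knockdown. In control 32 members were (61.5%, against 17.0% of all genes), and 19 were covered over at least 80% (36.5%, against 5.26%).

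The splicing helicases had the highest median control cover of the role groups. They comprise ATPases that drive the remodelling steps of the spliceosome, and 2 of 11 were marked in knockdown and 11 of 11 in control, where the median cover was 84.0% (range 31.8% to 91.0%). Ddx5, a splicing factor and transcriptional coregulator (chr11:106780355-106789185, minus strand), had the highest knockdown cover of any member. One knockdown peak of 3525 bp with 124 tags (95% Poisson interval 103 to 148, counting error only) and a fold enrichment of 4.76 covered 39.9% of Ddx5, against 1 control peak of 8095 bp with 602 tags over 87.9%. Its close relative Ddx17 had no knockdown peak and 1 control peak over 91.0% of its span. The pair thus differed by 3.06 percentage points in control, while a knockdown peak was listed over Ddx5 alone.

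Ddx23, which acts when U1 is released from the 5′ splice site, was the other splicing member marked in knockdown. A knockdown peak of 1511 bp with 58 tags covered 8.61% of Ddx23 (chr15:98645379-98662928), and 1 control peak covered 81.7%. None of the other 9 splicing genes had a base under a knockdown peak. Dhx8, which releases spliced mRNA, had 4 control peaks over 31223 bp (90.8%). Ddx46, needed for stable binding of U2, had 6 over 39896 bp (86.2%). Control cover was 84.7% in Dhx38, which acts before the second splicing step, 84.0% in Ddx41, found in catalytic spliceosomes, and 83.6% in Dhx16, which activates the spliceosome for the first step. It was 74.0% in Ddx42, which binds SF3B1 of the U2 particle. Dhx35, a component of catalytic spliceosomes, carried 14 separate control peaks over 37941 bp (59.8%), the most peaks of any member. Dhx15, which takes spent spliceosomes apart, was the least covered of the group at 31.8% in 6 peaks. Control cover in splicing genes therefore ran from single blocks over whole gene bodies to scattered short peaks.

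The ribosome biogenesis helicases, which fold and process ribosomal RNA in the nucleolus, were similarly covered in control. In knockdown 4 of 16 were marked and in control 16 of 16, with a median control cover of 81.7% (5.27% to 91.8%). In control 14 of the 16 were covered over at least 50% and 9 over at least 80%. The 4 with a knockdown peak were Ddx21, Ddx24, Ddx49 and Ddx56. Ddx21, which links ribosomal RNA transcription to its processing (chr10:62580247-62602298, minus strand), had a knockdown peak of 1604 bp with 63 tags over 7.27%, against 1 control peak of 20059 bp over 86.9%. Ddx24 (chr12:103407976-103425847, minus strand) had a knockdown peak of 1650 bp with 55 tags over 9.23%, against 2 control peaks over 84.6%. Ddx49 (chr8:70292866-70302471, minus strand) had a knockdown peak of 1412 bp with 55 tags over 14.7%, against 1 control peak over 82.8%. Ddx56 (chr11:6257545-6269786, minus strand) had a knockdown peak of 1603 bp with 62 tags over 13.1%, against 1 control peak over 78.9%. In each of these 4 genes the knockdown peak was a short block inside a control peak several times as long.

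The other 12 ribosome biogenesis genes had no base under a knockdown peak. Ddx52 had 2 control peaks over 91.8% and Ddx27 had 1 over 90.8%. The Ddx27 peak, 28229 bp long, was the longest over any member and ran 10411 bp past the 3′ end of Ddx27 into Znfx1, itself a helicase gene. Dhx37, which frees the U3 small nucleolar RNA from pre-ribosomes, had 2 control peaks over 88.7%. Ddx18 had a control cover of 83.2%, Ddx47 of 82.0% and Ddx54 of 81.3%. Ddx55 was covered over 70.7%, Dhx33, a regulator of ribosomal RNA transcription, over 65.7% and Ddx51 over 61.6%. Ddx31 had 11 control peaks over 44497 bp (68.3%), the most covered bases of any member. Ddx50, the paralogue of Ddx21, was covered over 48.4% in 6 peaks. Ddx10, the longest member at 149717 bp, had 2 control peaks over 5.27%, the lowest cover of any marked member, in a group otherwise at 48.4% or more.

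Among mRNA export genes 1 of 5 was marked in knockdown and 4 of 5 in control (median control cover 70.8%). Ddx39b encodes an export adaptor that joins mRNA to the TREX complex, and it had the highest control cover of all members, 92.0% under 1 peak of 11481 bp with 897 tags, with no knockdown peak. Its close relative Ddx39a (chr8:83715177-83726904) had a knockdown peak of 1422 bp with 48 tags over 12.1% and 1 control peak over 70.8%. Ddx19a and Ddx19b, which remove export factors at the cytoplasmic face of the nuclear pore, lie 5362 bp apart and had no knockdown peak. Control cover was 74.8% for Ddx19a, from 2 peaks centred in it and 693 bp of a peak centred beyond its 3′ end, and 56.9% in 4 peaks for Ddx19b. Ddx25, a testis helicase that carries mRNA out of the nucleus in germ cells (chr9:35541848-35558470, minus strand), had no peak.

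The translation and mRNA turnover genes had no knockdown peak in any of 6 and a control peak in 6 of 6, with lower control cover (median 32.1%, 10.3% to 76.9%). Dhx29, which helps initiation on structured messages, was the highest, with 8 peaks over 32118 bp (76.9%). Dhx36, which resolves G-quadruplexes, was covered over 40.9%, Ddx6, a repressor of translation that promotes decapping, over 38.3%, and Dhx34, a factor of nonsense-mediated decay, over 25.8%. The sex-linked pair of initiation helicases was low, with 10.3% in 1 control peak for Ddx3x and 21.2% in 2 control peaks for Ddx3y. Few genes of the sex chromosomes were marked at all. Of 966 protein-coding X genes, 61 held a control peak (6.31%), with a median cover of 13.1%, and of 256 Y genes Ddx3y was the only one to hold a peak centre. Another Y gene had a control cover of 89.6%, from a peak centred outside it.

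Smaller role groups held the remaining members. Of the 2 mitochondrial ribosome helicases, Dhx30 (chr9:110084319-110117616, minus strand) had a knockdown peak of 1345 bp with 52 tags over 4.04%, against 5 control peaks over 76.7%. Ddx28 had no knockdown peak and 1 control peak over 46.9%, a peak of 1739 bp that ran past the 3′ end of this gene of 1871 bp. Germ line helicases were Ddx4, the Vasa gene of the piRNA pathway (chr13:112598333-112652633, minus strand), without a peak, and Ddx43, with no knockdown peak and 5 control peaks over 36.0%.

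The innate RNA sensing genes had the lowest median control cover of the role groups, 8.89%. In knockdown 1 of 3 was marked, and in control 3 of 3. Ddx58, which encodes the sensor RIG-I, had no knockdown peak and 2 control peaks over 8.89%. Dhx58, which encodes its regulator LGP2, had no knockdown peak and a control cover of 21.6%, of which 155 bp came from a peak of 7352 bp centred over Kat2a. Ddx60, an interferon-induced antiviral helicase, was the exception among low-cover genes. At chr8:61928073-62037704 on the plus strand, it had 2 knockdown peaks of 1325 bp and 1302 bp with 45 and 43 tags over 2.40% of its 109632 bp, against 4 control peaks over 6.65%. These 2 were the peaks with the fewest tags among the 12 knockdown peaks over members.

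Of the 7 members with other or less defined roles, 1 was marked in knockdown and 7 in control (median control cover 39.1%). Ddx11 encodes a DNA helicase of sister chromatid cohesion, so it shares the symbol but is not known mainly for RNA. At chr17:66123513-66152174, it had 2 knockdown peaks over 3771 bp (13.2%) and 2 control peaks over 90.7%. Ddx1, a subunit of the tRNA ligase complex, was covered over 65.0% in control, and Ddx20, which works with SMN in assembling small nuclear ribonucleoproteins, over 43.8%. Dhx57 was covered over 39.1%, Dhx32 over 28.9%, Ddx59, linked to ciliary signalling, over 21.5% and Dhx40 over 20.7%, with no knockdown peak in any of these.

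**Figure D2:**
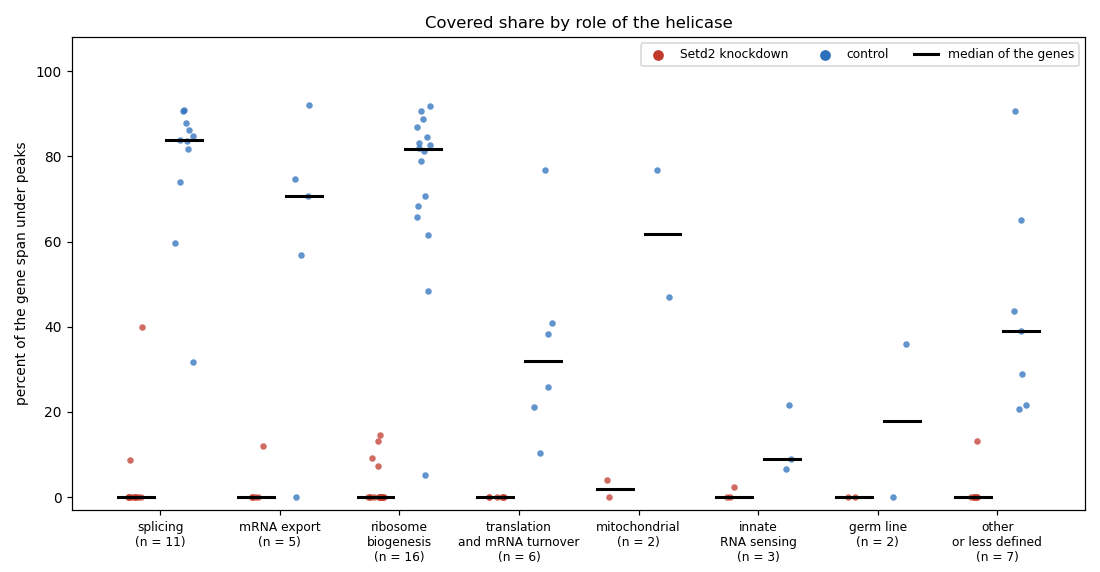
Percent of the gene span under peaks for each member (1 point per gene) by role, knockdown (red) left of control (blue), with the median of the genes as a black line. Splicing and ribosome biogenesis genes have control medians of 84.0% and 81.7%, and the 3 RNA sensing genes lie at 21.6% or below.

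Several close relatives had different values. Ddx21 and Ddx50 lie 13493 bp apart, and Ddx21 was covered over 7.27% in knockdown and 86.9% in control, against 0 in knockdown and 48.4% in control for Ddx50, a control gap of 38.5 percentage points. Ddx39a was marked in knockdown at 70.8% control cover, and Ddx39b was not at 92.0%. Dhx15 and Dhx32 were without a knockdown peak and differed by 2.95 percentage points in control. Of the 17871 bp covered in Dhx32, however, 4869 bp lay under a peak of 14315 bp centred beyond its 3′ end. That peak also touches Bccip, so the small gap depends on counting it.

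Knockdown peaks over members were shorter and held fewer tags than the control peaks they overlapped. The 12 knockdown peaks over members had a median length of 1473 bp (1302 to 3525 bp), 43 to 124 tags and a fold enrichment of 3.89 to 5.41, as the authors' caller gave it. All 12 overlapped a control peak. The 158 control peaks over members had a median length of 2982.5 bp, 47 to 1920 tags and a fold enrichment of 2.98 to 7.97. Of these, 24 were longer than 10 kb (15.2%, against 5.86% of all control peaks in protein-coding genes). Per kb of peak and relative to the genome mean of the same library, knockdown peaks held a median of 2.42 times the mean density of 15.7 tags per kb, and all control peaks over members 2.51 times the mean of 19.4 tags per kb. Each of the 12 knockdown peaks lay at a lower relative density than the control peak it overlapped. This was 2.24 times the mean in knockdown and 3.84 times in control for Ddx5, 2.50 and 3.97 for Ddx21, and 2.46 and 4.04 for Ddx56. The smallest gaps were in Ddx60, with 2.16 for a peak in knockdown and 2.57 for the control peak it overlapped, and 2.10 in knockdown and 2.42 in control for the other. In Dhx30 the knockdown peak lay at 2.46 and the control peak it overlapped at 3.42, but 4 other control peaks of Dhx30 lay at 1.96 to 2.45. The other control peaks of Ddx60 lay at 2.07 and 2.21. Each value is read inside the peaks of its own list, where a peak must exceed the caller's threshold to be listed.

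Which control peaks were still overlapped in knockdown went with their length and density. A knockdown peak overlapped 11 of the 158 control peaks over members by at least 1 bp (6.96%, exact binomial interval 3.53% to 12.1%), against 3.85% of 25627 control peaks in protein-coding genes. The 11 had a median length of 11889 bp and 3.58 times the mean tag density. The other 147 had a median length of 2936 bp and 2.49 times. A longer peak has more bases in which an overlap can fall, and the part of length in this difference was not tested.

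Most kept members had high control cover. Among members with at least 80% control cover 6 of 19 kept a peak (31.6%, against 22.6% of all such genes, 245 of 1085). Among those with 50% to 80% it was 3 of 13 (23.1%, against 9.04%, 215 of 2378), and none of 14 with 20% to 50% (against 6.86%). Ddx60 was the 1 of 4 marked members under 20% (against 10.8%). The members' shares rest on 1 to 6 genes each, and with this few genes a difference from the background is not established.

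**Figure D3:**
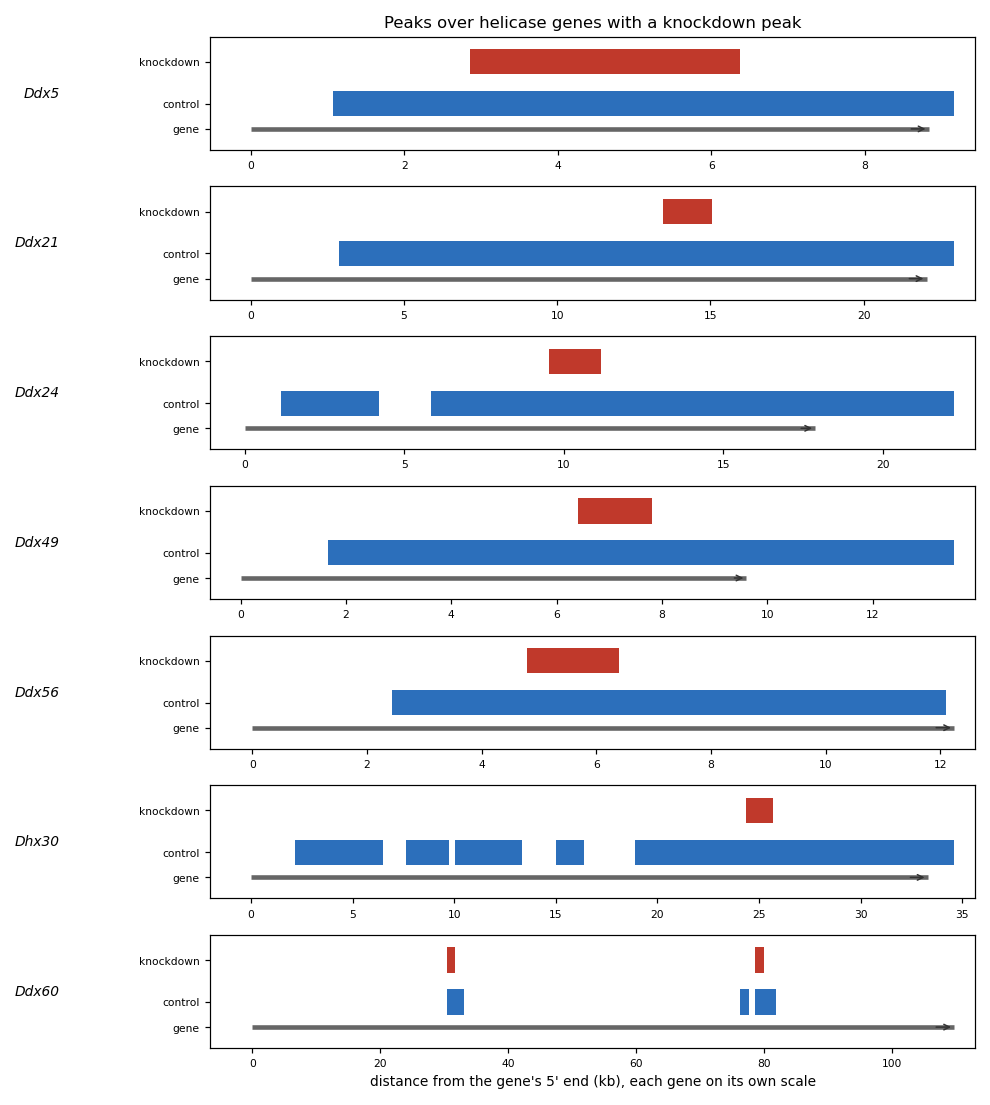
Peaks over the 7 helicase genes that had a knockdown peak and a known direction, as distance in kb from the gene's 5′ end, each gene on its own scale, with knockdown peaks (red) above control peaks (blue) and the gene as a grey line. Every knockdown peak sits in the gene body, within or across the edge of a control peak.

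Position within the gene was read for the 46 members whose direction the promoter table gives. Each gene was divided into 10 equal bins, numbered from its 5′ end. Mean knockdown cover of the members was 0 in the 1 kb before the gene, in bins 1 and 2, in bin 10 and in the 1 kb after it, and was highest in bin 7 at 5.03%. Mean control cover was 1.5% in the 1 kb before the gene, 11.8% in bin 1, 45.8% in bin 2 and 63.3% in bin 3. It lay between 63.4% and 66.8% from bin 4 to bin 10 and was 55.9% in the 1 kb after the gene. All 7263 control-marked genes with a known direction had a slower climb in control, with 32.8% in bin 3, a highest value of 56.1% in bin 9 and 38.6% after the gene. The 8 knockdown peaks with a known direction had their summits at 28.3% to 75.3% of the gene, with a median of 63.6%.

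**Figure D4:**
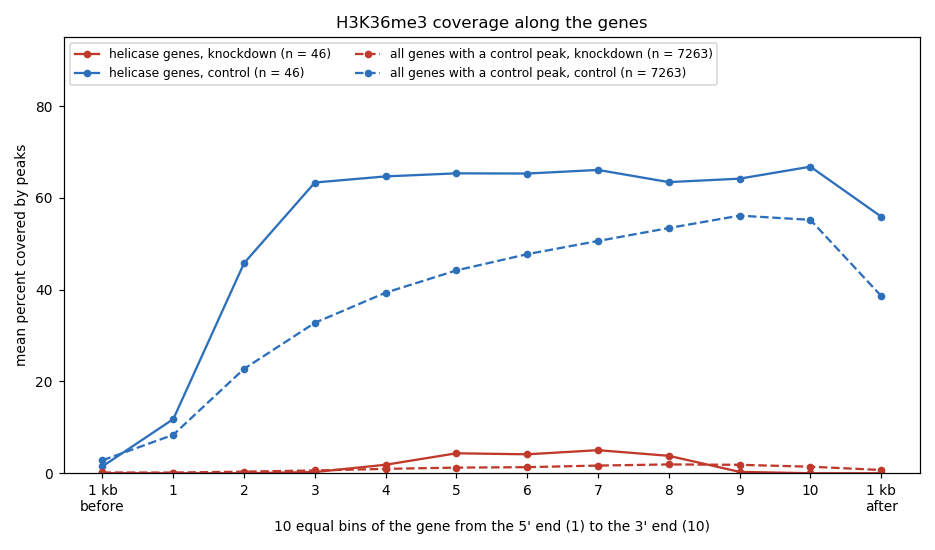
Mean percent covered by peaks in each of 10 equal bins of the gene and in 1 kb before and after it, for helicase genes (solid, n = 46) and all genes with a control peak (dashed, n = 7263), knockdown in red and control in blue. Helicase genes reach 63.3% by bin 3 in control, and knockdown cover stays at or below 5.03%.

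Control peaks began inside the genes and often ran past their ends. In the 44 members with control cover and a known direction, no peak over the gene reached upstream of the 5′ end. The first covered base lay a median of 2609 bp into the span, from 908 bp in Ddx51 to 33077 bp in Dhx32. These distances are from the 5′ end of the span and not from the start in the promoter entry, which differs in some genes. In 30 of the 44 a peak ran past the 3′ end, by a median of 1331 bp. Peaks crossing either end were not counted over all genes. In the 1 kb before the gene, 45 of 46 members and 6882 of the 7263 control-marked genes had no control cover. In the 1 kb after the gene, 15 of 46 members and 3648 of the 7263 had none. Bin 10 was more covered than bin 1 in 35 of the 44 (79.5%, against 71.3% of all such genes) and less covered in 4. Of the 158 control peaks centred in a member, 12 touched another protein-coding gene as well, and 10 members overlap another gene's span (Ddx5, Ddx17, Ddx19b, Ddx28, Ddx39a, Ddx42, Ddx49, Ddx54, Dhx32 and Dhx57). A further 6 control peaks, centred outside, added cover to Ddx1, Ddx19a, Ddx55, Dhx32, Dhx36 and Dhx58. Those over Ddx19a, Ddx55, Dhx32 and Dhx58 also touched another gene. In Ddx55, 3762 of 11901 covered bp came from such a peak, which touches Eif2b1. ChIP peaks carry no strand, so where a peak covers a helicase gene and its neighbour their marks cannot be told apart. None of the 12 knockdown peaks touched another protein-coding gene, including those of Ddx5, Ddx39a and Ddx49, whose spans overlap Cep95, Adgre5 and Homer3 elsewhere.

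Longer members tended to have lower control cover. Across the 52 members Spearman's rho between length and control cover was −0.37, and across the 9016 control-marked genes of the genome −0.61. The member value includes Ddx4 and Ddx25, which had no control peak, so the sets are not alike. Both values are descriptions across genes of 1 pooled library pair, and genes are not replicates. Of 33 members shorter than 30 kb, 25 were covered over at least 50%, and of 19 longer ones 7 were. The matching shares over all genes were not computed, so this difference is not shown to be particular to the members. By length class, members kept a peak in 2 of 7 under 10 kb (against 6.09% of all control-marked genes of that length), 6 of 25 from 10 to 30 kb (9.81%), 1 of 16 from 30 to 100 kb (10.8%) and 1 of 2 above (19.1%), counted among control-marked members. Over all genes the share was thus higher in longer classes. Among members each class holds only 1 to 6 kept genes, so no trend with length is established for them.

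**Figure D5:**
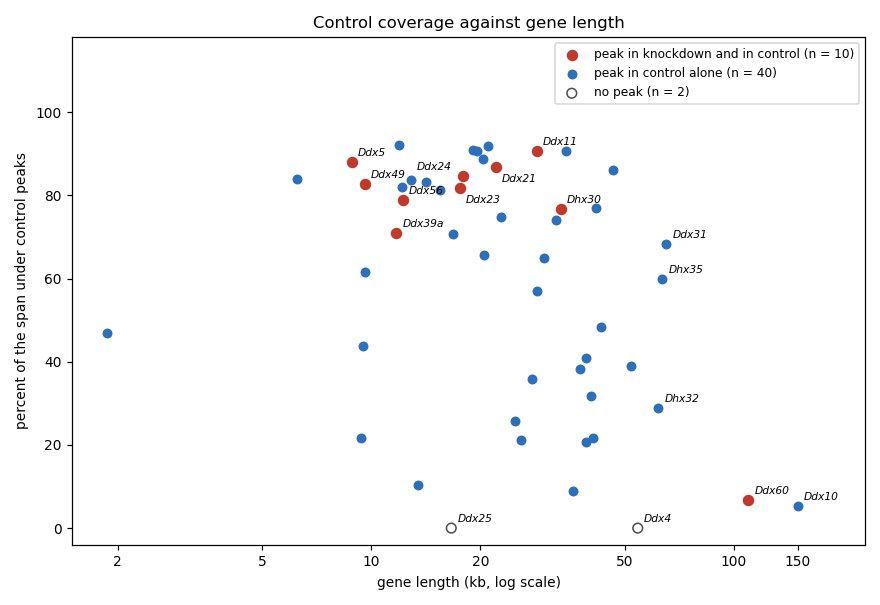
Percent of the gene span under control peaks against gene length (kb, log axis) for the 52 helicase genes, with genes marked in knockdown and control in red, in control alone in blue and in neither as open circles. Most red points lie above 70% cover at 8.83 to 33.3 kb, and Ddx60 lies at 6.65% and 109.6 kb.

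RNA helicases outside the Ddx and Dhx symbols were also mostly marked in control. Of 21 such genes, 3 were marked in knockdown (14.3%, against 4.95% of all genes) and 15 in control (71.4%, against 41.2%). Their median control cover was 59.6%. Eif4a2, a translation initiation helicase, was covered over 61.7% in knockdown and 97.5% in control, so its knockdown cover was above that of every Ddx or Dhx member. Upf1, the helicase of nonsense-mediated decay, was covered over 9.80% in knockdown and 78.6% in control. Eif4a1 (98.7%), Eif4a2 and the spliceosomal Snrnp200 (96.5%) had the highest control cover. No base of 6 of the 21 lay under a control peak. These were Ascc3, Helz2, Ythdc2, the germ line genes Tdrd9 and Mov10l1, and Ifih1, the RNA sensor related to RIG-I.

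Partner proteins of the helicases were also mostly marked in control. Of 32 such genes, 5 held a knockdown peak (15.6%, against 4.95% of all genes) and 27 a control peak (84.4%, against 41.2%). Their median control cover was 66.5%. Prpf8, the core spliceosome protein that several of the splicing helicases act on, was covered over 58.1% in knockdown and 92.9% in control. Gemin4, the partner of Ddx20 in the SMN complex, was covered over 31.9% in knockdown and 64.9% in control, although Ddx20 had no knockdown peak. Tfip11, which activates Dhx15, was covered over 13.3% in knockdown and 80.2% in control, and Nop53, a ribosome assembly factor, over 16.7% and 87.6%. Cnot1, the scaffold of the deadenylase complex that Ddx6 binds, was covered over 1.23% and 35.9%. Gle1, which activates the Ddx19 proteins at the nuclear pore, had the highest control cover of this list (93.0%), ahead of Prpf8 and Nup214 (91.8%), and neither Gle1 nor Nup214 held a knockdown peak.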

How the data were processed

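Peaks of 8 libraries from mouse embryonic stem cells were used, grouped by the treatment, antibody and genotype in the labels. The labels number replicates 1 and 2 and do not state whether they are separate cultures. FastQC 0.11.5 and Bowtie 1.1.2 were run with build mm10, per the submitters' processing notes, and for reads with several matches the treatment was not given in the sources used here. MACS 1.4.2 called peaks, per the file headers, once per condition on merged ChIP replicates against merged inputs, with a p cutoff of 1e-05, a band width of 300 bp, a fragment of 294 bp, tags of 50 bp, 1 tag kept per position, local background over 1000 and 10000 bp, and the larger data set scaled to the smaller. A global change in H3K36me3 between conditions is therefore not measured by peak values. Each peak has a count of tags, deposited as the authors' caller counted them and not normalized. Each also has a deposited score, 10 times the negative log10 of the p that the caller gave. The authors' caller gave a fold enrichment as well, the ratio of ChIP tags to those of the local background, and an FDR in percent. Score, fold and FDR were used only within their list. Duplicate removal took 23.9% of ChIP tags in knockdown and 14.7% in control.

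Gene spans came from a RefSeq table of GRCm38.p6 (52 of 52 members matched by symbol), and gene direction and promoter sequence from a RefSeq promoter table (46 of 52). Protein sequences and motif classes were not analysed here. A peak was assigned to a gene by its midpoint, covered share was the percent of the span under peaks, and peaks overlapped if they shared at least 1 bp. Intervals are exact at 95% (Clopper-Pearson or Poisson) and cover counting error only. With 1 list per condition, no test between conditions was made. Overlap code was tested on simulated data with known answers. All members may be named; full values go to members with knockdown cover, the 10 highest in control share, the 5 highest in control base pairs and the pairs of relatives. From the other helicases and partners, genes with a knockdown peak and the 3 highest in control were named, as were other helicases without control cover. One gene that this rule names is not reported here. Members, lists and roles were chosen with earlier results of these data known. Alternatives changed the assignment rule, gene span, FDR, score, overlap, number of control peaks and membership. Python 3.11.15, numpy 2.4.6, pandas 2.3.3, scipy 1.17.1 and matplotlib 3.10.9 were used.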

Additional observations from a re-analysis of the deposited data

How the results depend on the processing

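No paired analysis was possible because peaks were called on merged replicates, and for the same reason leaving out a replicate was not possible. Of 60 alternative values, 46 stayed close to those reported and 14 moved. Requiring 10% of the span covered left 5 members marked in knockdown, all 5 also in control (10.6% of control-marked members, against 4.52% of all such genes). Peaks with an FDR of 1% or less left 2 such members (Ddx39a and Ddx60; 4.35%, against 2.29%) and a knockdown cover of 0.2567% of the members' length, since high-scoring knockdown peaks carry a higher FDR in the deposited list. A score of at least 100 also left 2 (Ddx5 and Ddx11; 4.26%, against 4.38%), with a cover of 0.3715% and 2 control peaks overlapped. Demanding overlap of 50% of each peak left 1 control peak overlapped. Keeping only as many top-scoring control peaks as the 3040 of knockdown left 21 members marked in control, a median control cover of 0%, 16.49% of length covered and 7 control peaks overlapped, and 7 of the 21 kept a peak (33.3%, against 19.4% of all genes). With Dhx9 included, 11 members were marked in knockdown: Dhx9 had 2 knockdown peaks over 10.9% of its span and no control peak. Restricting members to proteins holding the DEAD or DEAH motif was not run. Peaks are listed by the caller's p cutoff, and no listed peak held fewer than 30 tags. Over members the fewest were 43 tags in knockdown and 47 in control. A missing peak is therefore not evidence of a missing mark.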
